A study of Homo sapiens with 24 samples.

Results

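The genes that throw the switch into mitosis were followed through 2 knockdowns in LNCaP cells. The set holds 10 genes: CDK1, the cyclins CCNA2, CCNB1, CCNB2 and CCNF, the phosphatases CDC25A, CDC25B and CDC25C, and the inhibitory kinases WEE1 and PKMYT1. They were picked by name, with earlier results of these data known, so their share of calls is no independent test. A probe was taken as theirs when its RefSeq accession in the array annotation belongs to 1 of them. This gave 12 probes of 10 genes, out of 50599 probes on the 24 h arrays and 58201 on the 48 h arrays, which name 20992 and 22439 genes through RefSeq. CDK1 and CCNB1 have 2 probes each, and every probe is reported since those of CCNB1 go apart. Of the 12 probes, 11 lay above the background threshold on at least 3 arrays (3 SDs over the mean of the spots for negative control sequences) and were tested at both times, and the WEE1 probe did not.

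LNCaP is an androgen-sensitive line of prostate carcinoma cells, grown here in serum-containing medium. The cells received by electroporation a scrambled control siRNA (si-SCRL), 1 siRNA against the long non-coding RNA TAPIR-1 (si-A1) or 1 siRNA against TAPIR-2 (si-A2), and RNA was taken after 24 h and after 48 h from 4 biological replicates per siRNA. Every sample had an array of its own (one-colour, Agilent), version 2 of the design at 24 h and version 3 at 48 h, so time and array version cannot be told apart in a level. Each transcript was targeted by 1 siRNA on these arrays, and both knockdown groups are compared with the same si-SCRL arrays. Replicate 2 of si-A2 at 48 h, a dim array with a median intensity of 13.9, was left out, which leaves 3 arrays in that group. The median intensity of the arrays used was 24.4 to 57.2 at 24 h and 20.4 to 32.2 at 48 h, between 58.5% and 71.7% of the spots were well above background, and no spot of the 12 probes was saturated. All 10 LNCaP marker genes examined were well above background on every array used, as were 4 of 8 markers of other cell types at 24 h and 3 of 8 at 48 h. The TAPIR-2 probe A_19_P00318461 read 5.03 ± 0.18 (SD, n = 4) with si-SCRL, 4.64 ± 0.32 with si-A1 and 4.07 ± 0.74 with si-A2 on the log2 scale at 24 h. The si-A2 difference of -0.97 had a limma adjusted p of 0.23, and at 48 h the TAPIR-2 difference with si-A2 was 0.24 with an adjusted p of 0.665. No probe was matched to TAPIR-1, so these arrays do not show the knockdowns themselves.

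CDK1 is the kinase that drives cells from G2 into mitosis. It works only when bound to a cyclin, first cyclin A and then cyclin B, whose amounts build up through S and G2. WEE1 and PKMYT1 (MYT1) hold the complex inactive by phosphorylating CDK1, and the CDC25 phosphatases take these phosphates off again, so that active CDK1 can in turn switch its activators on and its inhibitors off. Cyclin F does not activate a CDK but is the substrate-binding part of an SCF ubiquitin ligase. Most of these genes are transcribed periodically. In resting or p53-activated cells they are repressed by the DREAM complex, which binds E2F sites and the short element named the cell cycle genes homology region (CHR), while NF-Y binds CCAAT boxes in the same promoters.

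Windows around the annotated start sites, 250 bases before to 50 bases after, were taken from RefSeq on GRCh38.p14 for 8 of the 10 genes (15 windows, several genes having more than 1 start), and WEE1 and PKMYT1 were not matched. They were searched on both strands for the CHR forms TTTGAA and TTTAAA, for CCAAT, and for the E2F forms TTCCCGC and TTGGCGC as well as TTCGCGC. The form TTTGAA was found in windows of 4 of the 8 genes and TTTAAA in windows of 4, where 15.2% and 12.2% of all 35116 windows hold them. CCAAT was found for all 8 genes and in 34.6% of all windows, and an E2F form was found for 5 genes and in 11% of all windows. A gene with several windows has more chances of a match than a single window. The sequences upstream of CDK1 and of the cyclins whose levels differed most are shown 5′ to 3′ on the gene's own strand, with matches in capitals, and positions are counted from the base before the start as -1.

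CCNB1, chr5:69167030-69167149, plus strand: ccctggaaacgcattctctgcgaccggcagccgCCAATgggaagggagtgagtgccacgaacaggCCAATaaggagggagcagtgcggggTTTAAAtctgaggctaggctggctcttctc
CCNB2, chr15:59105026-59105145, plus strand: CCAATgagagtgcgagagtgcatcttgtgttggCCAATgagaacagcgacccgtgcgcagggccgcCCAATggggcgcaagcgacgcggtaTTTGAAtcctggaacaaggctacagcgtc
CCNA2, chr4:121823884-121824003, minus strand: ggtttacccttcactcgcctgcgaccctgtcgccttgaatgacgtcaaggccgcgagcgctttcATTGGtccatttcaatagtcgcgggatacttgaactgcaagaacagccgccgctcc
CDK1, chr10:60778081-60778330, plus strand: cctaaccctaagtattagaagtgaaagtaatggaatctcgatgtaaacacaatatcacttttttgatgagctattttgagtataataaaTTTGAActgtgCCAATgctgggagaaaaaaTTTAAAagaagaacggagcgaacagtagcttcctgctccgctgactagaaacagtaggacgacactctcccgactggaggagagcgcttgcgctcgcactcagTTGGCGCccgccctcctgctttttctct

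CCNB1 and CCNB2 have a similar layout in these stretches, with another CHR form and a further CCAAT box in CCNB2. In CCNB1 the element TTTAAA lies at -30 to -25 and CCAAT boxes lie at -87 to -83 and -55 to -51, and in CCNB2 the element TTTGAA lies at -29 to -24 with CCAAT boxes at -120 to -116, -87 to -83 and -54 to -50. CCNA2 holds 1 CCAAT box in reverse at -56 to -52 and neither of these CHR forms in its window. Upstream of the first CDK1 start, TTTGAA lies at -161 to -156, CCAAT at -150 to -146, TTTAAA at -131 to -126 and the E2F form TTGGCGC at -28 to -22. A second annotated CDK1 start further downstream has TTTGAA at -69 to -64 and -13 to -8, and 1 CDC25C window has TTTGAA at -30 to -25 with a reversed CCAAT at -85 to -81. These are matches of letters, and binding was not measured.

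CDK1, CCNA2 and CDC25C fell with both siRNAs at 24 h, and CCNA2, CCNB2 and CDC25B did so at 48 h. Against si-SCRL, CCNB1, CCNF and PKMYT1 were called with si-A1 at 48 h and in no other comparison. Between the siRNAs at 48 h none of these was called. The most probes were called with si-A1 at 48 h. At 24 h, CDK1, CCNA2, CCNB2 and CDC25C fell with si-A1, between 1.86-fold and 5.31-fold. These are 4 of the 11 probes tested, where 1.07% of all 43950 probes were called lower, a call being a limma adjusted p below 0.01 (Benjamini-Hochberg, over all probes tested) with a log2 fold change of at least 0.5 in size. CDK1, CCNA2 and CDC25C also fell with si-A2, and these 3 of 11 probes compare with 0.883% of all probes. At 48 h, 9 of the 11 probes, from 8 genes, fell with si-A1, between 1.53-fold and 11.6-fold, against 4.66% of all 40864 probes. After si-A2 at 48 h, CCNA2, CCNB2 and CDC25B fell, 3 of 11 probes against 0.582% of all. No probe of the set was called higher than in si-SCRL, where 0.0887% and 0.0933% of all probes were at 24 h and 2.96% and 0.113% at 48 h. With the dim si-A2 array of 48 h kept, no probe of the set was called in any 48 h comparison (CDK1 with si-A1 -3.53, limma adjusted p = 0.405).

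The direction was shared more widely than the calls. The log2 fold change was below 0 for 10 of the 11 probes in each of these 4 comparisons, the exception being the second CCNB1 probe each time. The median over the 11 probes was -0.71 with si-A1 and -0.86 with si-A2 at 24 h, where the median over all probes was 0.05 in both. At 48 h it was -1.67 with si-A1 and -1.21 with si-A2, with 0.06 and 0.01 over all probes. All knockdown arrays lay below all si-SCRL arrays for 9 probes with si-A1 and 10 with si-A2 at 24 h, a pattern that 5.45% and 4.42% of all probes show. At 48 h this held for 9 probes with si-A1 and 8 with si-A2, against 9.34% and 7.44% of all probes. RNA was taken from whole cultures, so fewer cells in G2 and mitosis and less of these RNAs per cell cannot be told apart.

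**Figure D1:**
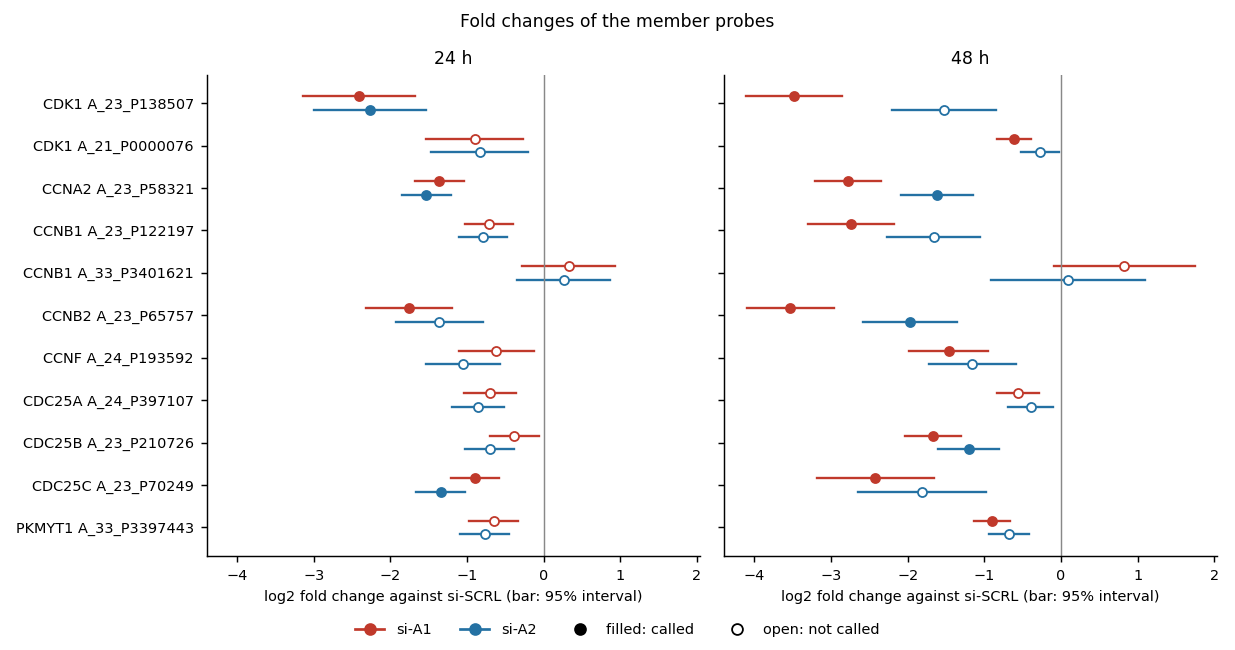
Log2 fold change against si-SCRL of each probe tested, with its 95% interval from the limma fit, for either siRNA at both times, where filled points passed the call. All probes but the second CCNB1 probe lie below 0, and the si-A1 values at 48 h reach -3.53 for CCNB2 and -3.48 for CDK1.

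CDK1 (chromosome 10, 60778331 to 60794852 on GRCh38.p14) had the largest fall of the set at 24 h. Its probe A_23_P138507, spotted 10 times on each array, read 9.04, 8.67, 10.57 and 9.06 in replicates 1 to 4 of si-SCRL on the log2 intensity scale. It read 7.17, 6.82, 6.99 and 6.73 with si-A1 and 6.98, 7.23, 7.16 and 6.92 with si-A2. The highest knockdown array lay well under the lowest control array, and si-SCRL replicate 3 stood above the other controls. CDK1 fell by 2.41 ± 0.33 on the log2 scale (estimate ± SE, n = 4 against 4), 5.31-fold, with si-A1 (limma adjusted p = 0.00258) and fell by 2.26 ± 0.33, 4.81-fold, with si-A2 (adjusted p = 0.00409). Within the slides, the si-A1 difference was -1.86 on slide 1 and -2.96 on slide 2, which holds the high control array, and without that array CDK1 was at -2.0 with si-A1 and at -1.86 with si-A2 (adjusted p = 0.000239 and 0.000384). The si-A1 call was lost without si-A1 replicate 2, 3 or 4 (adjusted p 0.0119 to 0.0128) and the si-A2 call without si-SCRL replicate 1 or any 1 si-A2 array (0.011 to 0.0193).

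At 48 h the same CDK1 probe read 10.25, 10.42, 9.51 and 10.29 with si-SCRL and 6.60, 7.07, 6.03 and 6.84 with si-A1. After si-A2, replicates 1, 3 and 4 read 9.20, 7.72 and 8.57. The si-A2 arrays lay between the other groups and overlapped with neither. CDK1 fell by 3.48 ± 0.28, 11.2-fold, with si-A1 (adjusted p = 6.64e-05), and this call held without any 1 of the 11 arrays. The difference with si-A2 was -1.53 ± 0.30 with an adjusted p of 0.0273, which is not a call; differences at 48 h are adjusted for the slide and need not equal the difference of the group means, because slide 1 has 1 si-A2 array.

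The other CDK1 probe, A_21_P0000076, carries the accession of another CDK1 transcript and has 1 spot. At 24 h it read 5.96 to 6.74 with si-SCRL, 5.13 to 5.81 with si-A1 and 4.61 to 5.84 with si-A2. Neither difference was called, with log2 fold changes of -0.90 (adjusted p = 0.177) and -0.84 (0.237). At 48 h it read 7.15 to 7.66 with si-SCRL, 6.42 to 7.11 with si-A1 and 6.81 to 7.55 with si-A2. It fell by 0.61 ± 0.10 with si-A1 (adjusted p = 0.00363), a call lost without si-SCRL replicate 1 or any 1 si-A1 array (0.01 to 0.0138), while the si-A2 difference was -0.28 (0.215). Both CDK1 probes thus went the same way, with a smaller difference in the second.

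CCNA2 (chromosome 4, 121816444 to 121823883) encodes cyclin A2, the partner of CDK1 in late S phase and G2. Its probe A_23_P58321, with 10 spots, read 7.81, 8.14, 8.11 and 8.0 with si-SCRL at 24 h. The values were 6.90, 6.57, 6.78 and 6.38 with si-A1 and 6.57, 6.46, 6.38 and 6.54 with si-A2. The controls and the knockdown arrays were separated by a wide gap and the knockdown groups overlapped with each other. CCNA2 fell by 1.36 ± 0.15, 2.57-fold, with si-A1 (adjusted p = 0.000554) and fell by 1.53 ± 0.15, 2.89-fold, with si-A2 (0.000244). Both calls held without any 1 of the 12 arrays.

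At 48 h, CCNA2 read 8.05, 8.03, 7.88 and 7.84 with si-SCRL, 5.09, 5.44, 4.96 and 5.17 with si-A1, and 6.90, 5.62 and 6.28 with si-A2. The groups did not overlap, and si-A2 lay in the middle. CCNA2 fell by 2.78 ± 0.19, 6.89-fold, with si-A1 (adjusted p = 3.82e-05). After si-A2 it fell by 1.62 ± 0.21 (adjusted p = 0.00597). The si-A2 call was lost without any 1 array other than si-A1 replicate 1 (log2 fold change -1.91 to -1.36, adjusted p 0.0104 to 0.0266), and with the replicate number as a block its adjusted p was 0.0171.

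CCNB1 (chromosome 5, 69167150 to 69178245) encodes cyclin B1, the main partner of CDK1 at mitotic entry, and its probes A_23_P122197 and A_33_P3401621 carry the same transcript accession. At 24 h A_23_P122197 read 9.47, 9.64, 9.86 and 9.64 with si-SCRL, 9.08, 8.87, 9.08 and 8.72 with si-A1, and 8.99, 8.94, 8.74 and 8.75 with si-A2. A_33_P3401621 read 11.19, 10.93, 9.73 and 11.16 with si-SCRL, 10.94, 11.13, 11.05 and 11.19 with si-A1, and 10.95, 11.02, 11.13 and 10.94 with si-A2. The first probe was lower on all knockdown arrays than on all controls, whereas the second overlapped throughout, with si-SCRL replicate 3 alone far below the rest. For A_23_P122197 the log2 fold changes of -0.71 ± 0.14 with si-A1 and -0.79 ± 0.14 with si-A2 had adjusted p-values of 0.0237 and 0.0153 and were not called. For A_33_P3401621 they were 0.33 ± 0.27 (0.627) and 0.26 ± 0.27 (0.764), and without si-SCRL replicate 3 they were -0.02 and -0.09.

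At 48 h the probes moved further apart. A_23_P122197, spotted 10 times at 24 h but once on the 48 h version, read 10.73, 10.37, 9.92 and 10.22 with si-SCRL, 7.09, 7.95, 7.43 and 7.80 with si-A1, and 9.0, 8.05 and 8.76 with si-A2. A_33_P3401621 read 11.91, 12.05, 11.37 and 11.91 with si-SCRL, 13.07, 12.69, 13.04 and 11.74 with si-A1, and 12.28, 12.57 and 10.62 with si-A2. By the first probe si-A1 was lowest and si-A2 intermediate with no overlap, and by the second the groups overlapped with 3 of 4 si-A1 arrays above all controls. By A_23_P122197, CCNB1 fell by 2.74 ± 0.25, 6.69-fold, with si-A1 (adjusted p = 0.000127). Its si-A2 difference of -1.66 ± 0.27 was not called (adjusted p = 0.0138), although it was without si-A1 replicate 1 (-1.62, 0.00897). By A_33_P3401621 the differences were 0.83 ± 0.41 with si-A1 (95% interval -0.09 to 1.75, adjusted p = 0.204) and 0.09 ± 0.45 with si-A2 (0.943), so the fall of CCNB1 rests on 1 of its 2 probes. Why the probes differ was not tested.

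CCNB2 (chromosome 15, 59105146 to 59125045) encodes cyclin B2, a second B-type partner of CDK1. Its probe A_23_P65757 read 6.83, 6.69, 7.54 and 6.70 with si-SCRL at 24 h, 5.62, 5.02, 5.43 and 4.66 with si-A1, and 5.89, 5.60, 5.50 and 5.32 with si-A2. All knockdown arrays were below all controls, and si-SCRL replicate 3 stood above the other controls. CCNB2 fell by 1.76 ± 0.26, 3.38-fold, with si-A1 (adjusted p = 0.00394), a call lost without si-SCRL replicate 1 or 4 or si-A1 replicate 2 or 4 (0.0103 to 0.0201). The si-A2 difference, -1.36 ± 0.26, was not called (0.0212).

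At 48 h CCNB2 showed the largest difference of the set in the fit as reported. It read 7.76, 7.33, 6.74 and 7.53 with si-SCRL, 3.98, 3.91, 3.36 and 3.99 with si-A1, and 5.98, 4.6 and 5.29 with si-A2. The groups were separate, with si-A1 lowest. CCNB2 fell by 3.53 ± 0.25, 11.6-fold, with si-A1 (adjusted p = 4.08e-05) and fell by 1.97 ± 0.27, 3.91-fold, with si-A2 (0.00784). Over the alternatives the si-A1 difference of CCNB2 lay between -3.71 and -1.68, so its size and its rank depend on the processing. That of CDK1 lay between -3.68 and -2.85. The si-A1 call held without any 1 array, whereas the si-A2 call was lost without any 1 of the 11 arrays (log2 fold change -2.23 to -1.71, adjusted p 0.0109 to 0.0267).

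CCNF (chromosome 16, 2429447 to 2458854) encodes cyclin F and was close to background. Its probe A_24_P193592 read 4.52 to 5.34 with si-SCRL, 3.97 to 4.44 with si-A1 and 3.58 to 4.43 with si-A2 at 24 h, and 1 of the 4 si-A2 arrays had it well above background. The knockdown arrays lay below the controls, with differences of -0.62 ± 0.22 (adjusted p = 0.242) and -1.05 ± 0.22 (0.0373) that were not called. At 48 h it read 4.13 to 4.82 with si-SCRL, 2.67 to 3.28 with si-A1 and 2.89 to 3.86 with si-A2. After si-A1 it was well above background on no array, so CCNF was at least 2.36-fold lower there, a bound that was not tested. The limma fit on these signals near background gave -1.47 ± 0.23 (adjusted p = 0.00282). That call was lost without si-A1 replicate 1 or 2 or si-SCRL replicate 4 (0.0103 to 0.011). The bound sets the control mean against the lowest signal well above background on each si-A1 array or the probe's own signal, whichever was higher. The si-A2 difference at 48 h was -1.16 ± 0.25 (0.0388).

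Among the phosphatases, CDC25C (chromosome 5, 138285265 to 138338355) and CDC25B (chromosome 20, 3786951 to 3806115) fell, and CDC25A (chromosome 3, 48157146 to 48188417) was not called in any comparison. All of them remove the inhibitory phosphates that WEE1 and PKMYT1 place, CDC25A also at the entry into S phase on CDK2. CDC25C, probe A_23_P70249, read 5.97, 5.98, 5.53 and 5.77 with si-SCRL at 24 h, 4.83, 5.25, 4.82 and 4.78 with si-A1, and 4.59, 4.32, 4.51 and 4.45 with si-A2. The groups did not overlap and si-A2 was the lowest. CDC25C fell by 0.89 ± 0.14, 1.86-fold, with si-A1 (adjusted p = 0.00701) and fell by 1.35 ± 0.14, 2.54-fold, with si-A2 (0.000529). The si-A2 call held without any 1 array, and the si-A1 call was lost without each array other than si-SCRL replicate 3 and si-A2 replicate 2 (log2 fold change -0.98 to -0.82, adjusted p 0.0111 to 0.0308).

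At 48 h CDC25C read 5.34, 5.37, 5.40 and 5.77 with si-SCRL, 2.52, 3.66, 2.57 and 3.43 with si-A1, and 4.21, 2.84 and 3.81 with si-A2. The controls were above all knockdown arrays and the knockdown groups overlapped. It fell by 2.42 ± 0.34, 5.37-fold, with si-A1 (adjusted p = 0.0016), where it was well above background on 2 of 4 arrays, and the si-A2 difference was -1.82 ± 0.37 (0.0315).

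CDC25B, probe A_23_P210726, read 8.51, 8.61, 7.81 and 8.25 with si-SCRL at 24 h, 8.14, 7.96, 7.85 and 7.67 with si-A1, and 7.70, 7.55, 7.57 and 7.50 with si-A2. The si-A1 arrays overlapped with the controls through si-SCRL replicate 3, the si-A2 arrays did not. The differences were -0.39 ± 0.15 with si-A1 (adjusted p = 0.273) and -0.71 ± 0.15 with si-A2 (0.0349), and without si-SCRL replicate 3 the si-A2 value was -0.84 with an adjusted p of 0.00517. At 48 h CDC25B read 8.0, 7.92, 8.11 and 8.45 with si-SCRL, 6.53, 6.64, 6.25 and 6.40 with si-A1, and 7.14, 6.58 and 6.98 with si-A2. It fell by 1.67 ± 0.16, 3.17-fold, with si-A1 (0.000196), a call that held without any 1 array. After si-A2 it fell by 1.21 ± 0.18, 2.31-fold (0.00958), a call lost without any 1 of the 11 arrays (-1.35 to -1.05, adjusted p 0.0153 to 0.0315) and with the replicate block (0.0196).

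CDC25A, probe A_24_P397107, read 7.30 to 7.94 with si-SCRL, 6.78 to 7.05 with si-A1 and 6.51 to 6.87 with si-A2 at 24 h. The groups were separate from the controls, with differences of -0.70 ± 0.15 (adjusted p = 0.0417) and -0.86 ± 0.15 (0.0158). Without si-SCRL replicate 3 the si-A2 difference was -0.95 and was called (0.00976). At 48 h it read 7.56 to 8.10 with si-SCRL, 6.96 to 7.73 with si-A1 and 7.25 to 7.79 with si-A2, with overlap. The differences were -0.56 ± 0.12 (0.0118) and -0.40 ± 0.13 (0.144).

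Of the inhibitory kinases, PKMYT1 (chromosome 16, 2972808 to 2980446), which sits on internal membranes and phosphorylates CDK1, was lower alongside the activators. Its probe A_33_P3397443 read 8.75 to 9.07 with si-SCRL, 7.97 to 8.53 with si-A1 and 8.08 to 8.21 with si-A2 at 24 h. No knockdown array reached the controls, and the differences were -0.65 ± 0.14 (adjusted p = 0.0422) and -0.77 ± 0.14 (0.021), short of a call. At 48 h it read 9.07 to 9.42 with si-SCRL, 8.19 to 8.40 with si-A1 and 8.41 to 8.65 with si-A2, with no overlap among the 3 groups. PKMYT1 fell by 0.90 ± 0.11, 1.87-fold, with si-A1 (0.000567), and the si-A2 difference was -0.68 ± 0.11 (0.0157).

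WEE1 (chromosome 11, 9573670 to 9589985), the nuclear kinase of the pair, could not be followed. Its probe A_33_P3290567 read 1.59 to 2.87 on the 24 h arrays and was well above background on none of them. At 48 h it was well above background on 2 of 4 si-SCRL arrays and on no knockdown array. With the filter on low values removed, its log2 fold changes at 48 h were -1.65 with si-A1 (adjusted p = 0.0403) and -1.54 with si-A2 (0.16), neither called.

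The knockdowns were also set against each other in the fit of all 3 groups, where the si-SCRL arrays enter the slide term and the estimate of the spread. At 24 h none of the 11 probes was called by limma (0.132% of all probes were called lower with si-A2 than with si-A1 and 0.287% higher), and 2 had an unadjusted p under 0.05. These were CDC25C, with a difference of -0.45 (adjusted p = 0.196) and all si-A2 arrays below all si-A1 arrays, as for 5.01% of all probes, and CDC25B, with -0.32 (0.433). The CDK1 difference was 0.14 with a 95% interval of -0.58 to 0.87. At 48 h CDK1 was 3.88-fold higher with si-A2 than with si-A1, a log2 difference of 1.96 ± 0.30 (95% interval 1.28 to 2.63, adjusted p = 0.00639), and it was the 1 probe called where 1.4% of all probes were called higher and 0.697% lower. Its difference was 2.37 on slide 1 and 1.71 on slide 2, and the call was lost without 7 of the 11 arrays taken singly, si-SCRL replicates 1 and 2 among them (1.71 to 2.01, adjusted p 0.0115 to 0.0523). The second CDK1 probe differed by 0.34 (95% interval 0.09 to 0.59, adjusted p = 0.111), 1.26-fold, and was not called.

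Of the cyclins, none was called between the siRNAs at 48 h. CCNA2 differed by 1.16 (adjusted p = 0.0126), CCNB2 by 1.56 (0.0114) and CCNB1 by its first probe by 1.08 (0.0459). The second CCNB1 probe lay the other way, at -0.73 (0.411), and CCNF was at 0.31 (0.556). With the replicate number as a block, CCNB2 was called too (1.49, adjusted p = 0.0047). Of the 11 arrays left out singly, only si-A2 replicate 3 gave calls for CCNA2 (1.43, 0.00294) and CCNB2 (1.84, 0.00786), and this array lay nearest to the si-A1 arrays, so its removal had to widen the differences. All si-A2 arrays lay above all si-A1 arrays for 5 of 11 probes, as they do for 8.33% of all probes. CDC25B, CDC25C and CDC25A had differences of 0.46, 0.60 and 0.17, none called.

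The change of each effect between the times was tested as an interaction of siRNA and time over the probes on both array versions. The si-A1 effect was larger at 48 h than at 24 h for CCNB1 by A_23_P122197 (change -1.96 ± 0.28, adjusted p = 0.00274), CCNA2 (-1.46 ± 0.24, 0.00575) and CDC25B (-1.29 ± 0.21, 0.00575). These are 3 of 11 probes, where 0.134% of all 32947 probes were called below 0 and 0.0789% above. The calls of CCNA2 and CDC25B were each lost without 12 of the 23 arrays taken singly (-1.50 to -1.37, adjusted p 0.0116 to 0.0193, and -1.35 to -1.15, 0.0102 to 0.0189), and that of CCNB1 without 2 (-1.93 and -1.90, 0.0104 and 0.0113). With the replicate number as a block, CCNA2 (0.0185) and CDC25B (0.0144) were no longer called, CCNB1 was (0.00577), and CCNB2 was called too (0.00991). Without the block, the change for CCNB2 was -1.66 (0.0376), for CDC25C -1.26 (0.0705) and for CDK1 -1.04 (95% interval -2.01 to -0.07, adjusted p = 0.315). The si-A2 effect gave no call by limma (0.00303% of all probes were called below 0 and 0.0425% above), with 3 probes at an unadjusted p under 0.05. These were CCNB1 (A_23_P122197) at -0.80, CDC25A at 0.47 and CDC25B at -0.50, with adjusted p-values of 0.486, 0.56 and 0.593. For CDK1 the change of the si-A2 effect was 0.80 (adjusted p = 0.765).

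**Figure D2:**
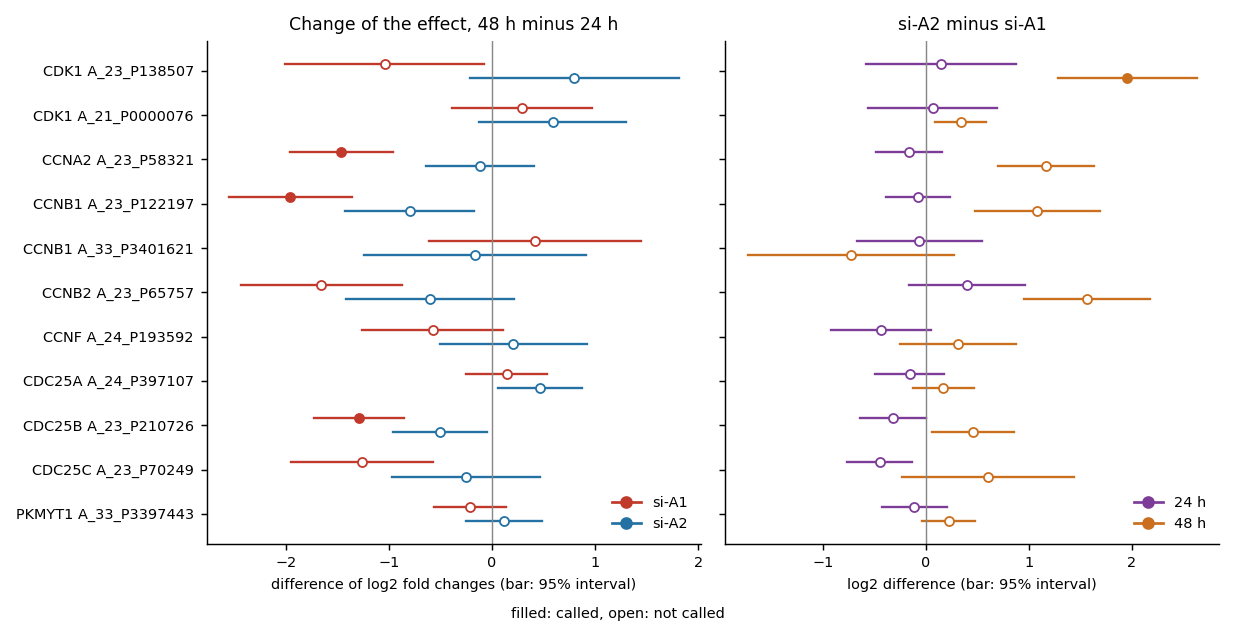
Log2 difference between si-A2 and si-A1 at 24 h and at 48 h, and change of each siRNA's effect from 24 h to 48 h, for the 11 probes tested, with 95% intervals and filled points for calls. CDK1 at 48 h is called at 1.96 above 0, and CCNA2, CCNB1 (A_23_P122197) and CDC25B are called below 0 in the change of the si-A1 effect.

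Around these genes stand the regulators that feed into the switch, taken as a list of 52 genes in 8 roles, each by its brightest probe above background. At 24 h, 11 of the 50 measured genes fell with si-A1 and none rose, and 11 fell and 1 rose with si-A2, where 1.74% and 1.53% of all RefSeq-named genes were called lower and 0.14% higher in both. At 48 h, 19 of 47 fell and 2 rose with si-A1, against 7.03% lower and 2.98% higher of all, and 6 fell and 1 rose with si-A2, against 0.938% and 0.137%. The median log2 fold change of the list was -0.41 and -0.32 at 24 h and -0.45 and -0.31 at 48 h with si-A1 and si-A2, with medians of all genes between -0.01 and 0.04. Part of the list had been seen in earlier results from these arrays.

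Upstream of CDK1, AURKA, the kinase that activates PLK1, read 8.55 ± 0.11 (SD, n = 4) with si-SCRL, 7.50 ± 0.23 with si-A1 and 7.42 ± 0.17 with si-A2 at 24 h. It fell in all 4 comparisons, with log2 fold changes at 24 h of -1.05 for si-A1 and -1.13 for si-A2, and at 48 h of -2.84 and -1.70. PLK1, which acts on CDC25C and WEE1, fell by 1.31 with si-A1 at 24 h (adjusted p = 0.00857), and its si-A2 value was -1.16 (0.0209). No probe of the 48 h arrays was matched to PLK1, so it was not followed there. CKS1B, a small subunit that binds CDK1, also fell in all 4, with -1.16 and -1.0 at 24 h and -2.54 and -1.46 at 48 h. MASTL (Greatwall), which blocks the phosphatase that opposes CDK1, fell with -0.89 and -1.08 at 24 h. These genes are named because they were called. Of the 3 upstream kinases and cofactors, 2 fell with si-A1 and 1 with si-A2 at 24 h. At 48 h 1 of the 2 tested fell with each siRNA. BORA, a cofactor in this list, was not called in any comparison. Of the 5 partners and activating kinases of CDK1, 1 fell with each siRNA at 24 h, and at 48 h 2 of 4 fell with si-A1 and 1 with si-A2. CDK7, part of the kinase complex that activates CDKs, was not called, with 0.48 for si-A1 at 48 h (adjusted p = 0.014). In the Greatwall branch, 1 of 7 fell with each siRNA at 24 h, and at 48 h 2 fell with si-A1 and none with si-A2, where MASTL was at -0.67 (0.111).

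Of 6 checkpoint kinases and adaptors that restrain the switch, 2 fell with each siRNA at 24 h, and at 48 h 4 fell with si-A1 and none with si-A2. The shares of all genes called lower were 1.74% and 1.53% at 24 h and 7.03% and 0.938% at 48 h. ATM and ATR were not called in any comparison. CHEK1, the kinase that inactivates CDC25 proteins, read 7.18 ± 0.46 with si-SCRL at 24 h and fell, with -1.72 for si-A1 and -2.0 for si-A2. CLSPN (claspin), the adaptor that lets ATR activate CHEK1, fell by 3.72 with si-A1, where it was well above background on 2 of 4 arrays, and with si-A2 no array had it well above background and it was at least 12-fold lower. Of the 5 genes listed as p53-linked inhibitors, 4 were tested, and RPRM was not. At 24 h none rose with si-A1 and 1 with si-A2, where 0.14% of all genes did with either. At 48 h 2 rose with si-A1 and 1 with si-A2, against 2.98% and 0.137% of all genes. CDKN1A (p21) binds and blocks cyclin-CDK complexes. It rose by 1.79 with si-A2 at 24 h (limma adjusted p = 9.66e-05) and by 2.10 with si-A1 at 48 h. Its values of 0.68 with si-A1 at 24 h (0.0406) and 1.22 with si-A2 at 48 h (0.0132) were not called. SFN was not called in any comparison, with -0.27 and 0.34 at 24 h and -0.63 and -0.78 at 48 h. GADD45A, named here after its values were seen, rose by 0.99 and 1.06 at 48 h. GTSE1 was in this list too, but it lowers p53 activity in G2, so its fall is not the fall of an inhibitor. It fell in all 4 comparisons, with -1.3 and -1.63 at 24 h and -3.53 and -2.02 at 48 h.

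Of 10 genes for the degradation of these proteins, 2 fell with each siRNA at 24 h, and 4 with si-A1 and 1 with si-A2 at 48 h. Of 12 genes for their transcription, 1 and 3 fell at 24 h and 4 and 2 at 48 h. Among all genes, si-A1 and si-A2 lowered 1.74% and 1.53% at 24 h and 7.03% and 0.938% at 48 h by the same call. CDC20, the activator of the anaphase-promoting complex that destroys cyclin B, fell with -0.98 and -1.15 at 24 h. FBXO5 (EMI1), an inhibitor of that complex, was at least 2.89-fold lower with si-A2 at 24 h and at least 6.11-fold lower with si-A1 at 48 h. SKP2, a substrate receptor of an SCF ligase, fell with si-A1, with -2.10 at 24 h and -2.09 at 48 h. The transcription factor FOXM1 fell with -1.01 and -1.11 at 24 h, its MuvB partner MYBL2 (B-MYB) fell by 1.13 with si-A2, and RBL1 (p107), a pocket protein of the DREAM family, fell by 0.94 with si-A2. CDK2, the paralog of CDK1 that pairs with cyclin A in S phase, fell with si-A1, with -1.59 at 24 h and -2.15 at 48 h.

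**Figure D3:**
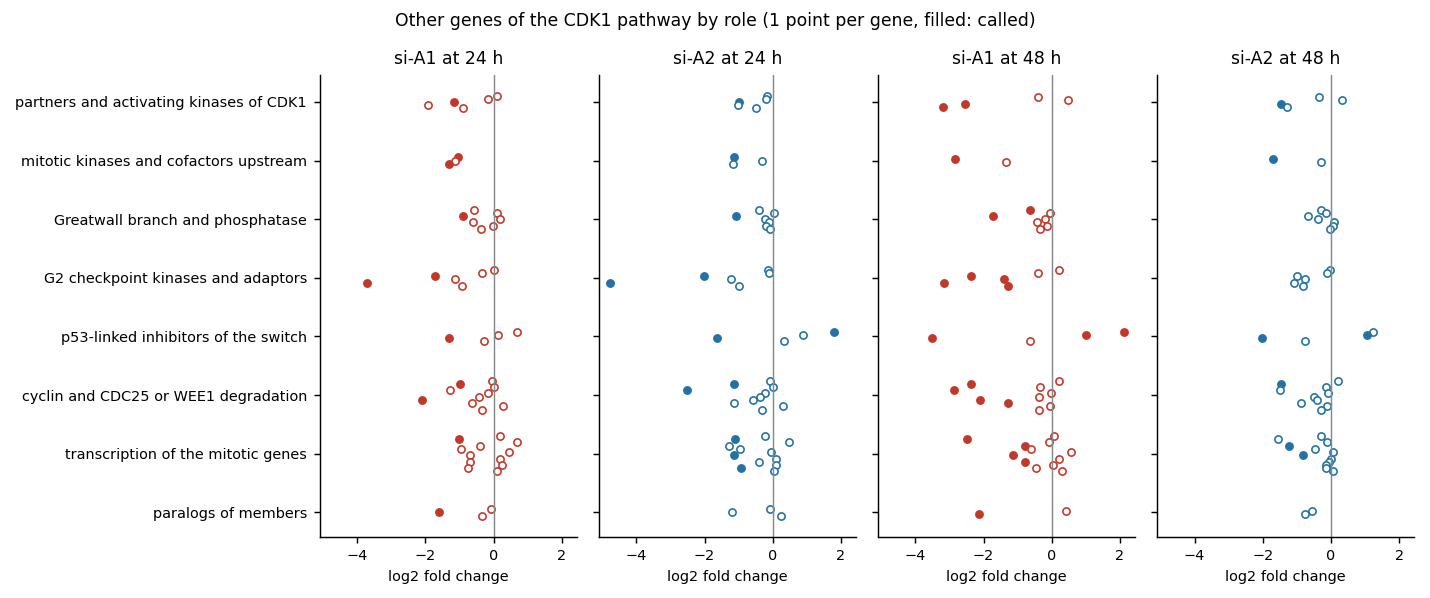
Log2 fold change against si-SCRL of the genes of the 8 role lists, by role, siRNA and time, with filled points for calls. Most called genes lie below 0, and CDKN1A and GADD45A are the ones called above 0.

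The 5 RefSeq-named genes whose log2 intensity followed that of CDK1 (A_23_P138507) most closely were taken at each time, a gene counting once by its best probe. Over the 12 arrays of 24 h, Pearson's r was 0.990 for RFC4, a subunit of the clamp loader, 0.986 for the mitotic kinase PBK, 0.980 for the replication clamp PCNA, 0.979 for the ribonucleotide reductase subunit RRM2 and 0.978 for ZWILCH, a kinetochore protein. Over the 11 arrays of 48 h it was 0.997 for PCNA, 0.996 for the kinesin KIFC1, 0.995 for the flap endonuclease FEN1, 0.995 for the midbody protein CEP55 and 0.995 for the histone H3C2. Within the set, CCNB2 stood closest to CDK1 at both times (0.953 and 0.986), followed at 24 h by CCNB1 (A_23_P122197, 0.939) and CCNA2 (0.919) and at 48 h by CCNA2 (0.979) and CCNB1 (0.971). PKMYT1 had 0.779 and 0.915, CDC25A had 0.745 and 0.741, and the second CCNB1 probe had -0.648 and -0.524. The arrays share siRNA groups and a normalization, so these values mostly restate the group differences, and they carry no test.

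How each value moved under other processing differed between genes. After si-A1 at 24 h, the CDK1 difference lay between -2.61 and -1.93 and was called in 22 of 26 alternatives, and CCNA2 was called in 25 of 26. After si-A2 at 24 h, CCNA2 and CDC25C were called in all 26. After si-A1 at 48 h, CDK1, CCNA2, CCNB2, CDC25B and CDC25C were called in 25 of 26 each. PKMYT1 was called there in 24 of 26, CCNB1 (A_23_P122197) in 24 of 25 and CCNF in 20 of 26. At 24 h, CCNB2 with si-A1 was called in 21 of 26 and CDK1 with si-A2 in 20 of 26. CDC25C with si-A1 at 24 h was called in 9 of 26. After si-A2 at 48 h, CCNA2 and CCNB2 were called in 11 of 26 each and CDC25B in 10 of 26. The second CDK1 probe with si-A1 at 48 h was called in 14 of 25. The CDK1 difference between si-A2 and si-A1 at 48 h was called in 15 of 26.

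**Figure D4:**
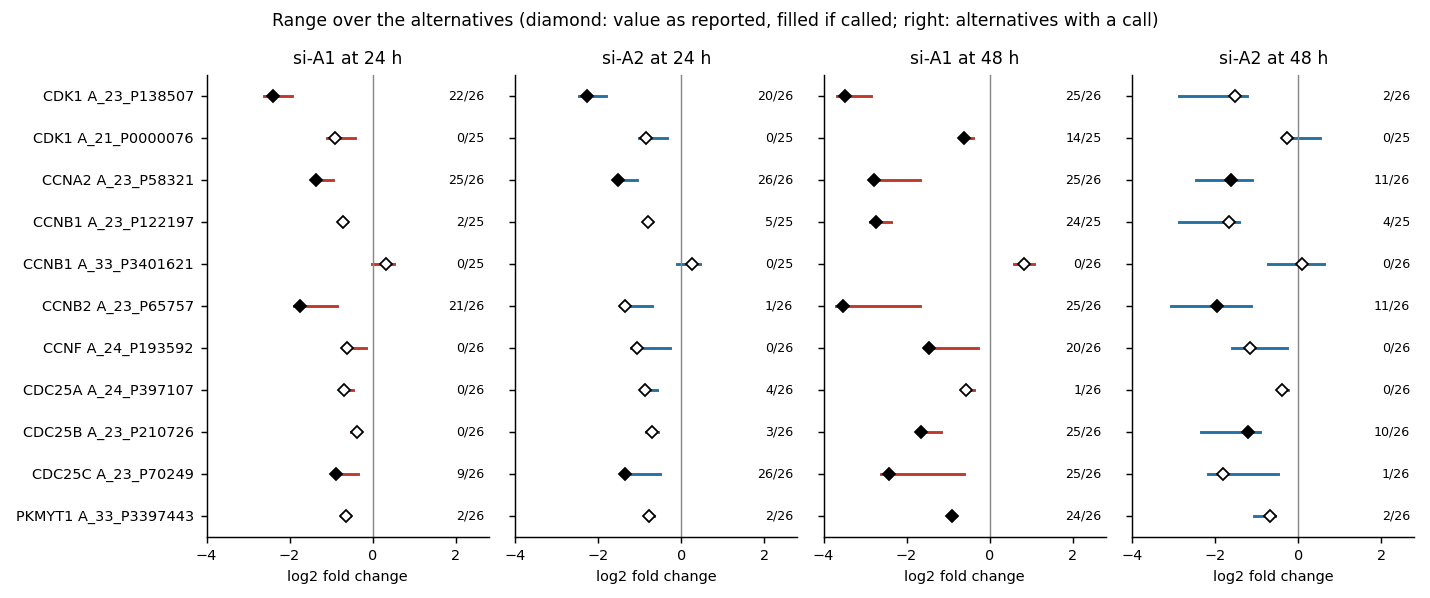
For each probe and comparison, the value as reported (point) and the lowest and highest log2 fold change over the alternatives (line), with the number of alternatives in which it was called. CDK1 with si-A1 at 24 h spans -2.61 to -1.93, and the second CCNB1 probe crosses 0.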

How the data were processed

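The series holds 24 one-colour Agilent arrays with RNA of LNCaP cells. The authors deposited Feature Extraction (11.5.1.1) output, whose processed signal is a background-subtracted intensity on a linear scale, not normalized between arrays, and log2 values for each time, which are quantile-normalized. Per the labels, the authors used R 3.4.3 and limma 3.34.8 with build hg38.

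Here the deposited processed intensity was log2-transformed and quantile-normalized over all arrays used at a time. Flagged spots were left out, spots of a probe averaged, and probes kept above the mean plus 3 SDs of 308 negative control spots on at least 3 arrays. Linear models came from limma 3.58.1 under R 4.3.3 (with data.table, version 1.17.8, and statmod 1.5.0), with the 3 siRNA groups in 1 fit and the slide as an additive term. Adjusted p-values are Benjamini-Hochberg values over all probes tested, and a call needed both an adjusted p below 0.01 and a log2 fold change of 0.5 or more in size. The change between the times used 23 arrays normalized together. For a probe rated well above background on none of a group's arrays, a bound was given. The study's further filter on the interquartile range was used as an alternative only. Precision is limited by the signal over background and the few arrays per group. Repeats are biological per the methods, and p-values measure the spread between them.

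Groups and replicate numbers came from the sample labels. Slides were numbered within each time, where slide 1 held replicates 1 and 2 and slide 2 replicates 3 and 4. No slide held arrays of both times. Whether equal numbers pair the samples was checked by correlating deviations from the group means. At 48 h all 10 same-number pairs exceeded 0.1 (r 0.24 to 0.43), and at 24 h 3 of 12 did (-0.15 to 0.16). At 48 h, pairs of other numbers on the same slide had 0.12 to 0.39, so slide and pairing overlap.

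All 12 probes of the 10 genes are named, of each role list up to 4 genes called at 24 h with the largest change, and the 5 genes most correlated with CDK1 at each time. Some genes of the role lists that were not called at 24 h are named too. The members, lists and tests were chosen with earlier results of these data known. Alternatives were 75th percentile scaling, normexp (offset of 50) or no background correction, both on the median spot signal, the replicate block, no slide term, the authors' log2 values, a random slide block, only the groups compared, 3 other filters, flagged spots kept, a fold threshold of 1, the brightest probe per gene, separate normalization of the times, the dim array kept, and each array left out. The fits were tested on simulated data.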

Additional observations from a re-analysis of the deposited data

Results flagged for a closer look

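In groups of 4 arrays, 5 of the 60 examined had 1 array far from the other 3 by Dixon's ratio, where chance marks about 1 in 20. At 24 h these were si-A1 replicate 2 for CDC25C, at 5.25 on the log2 scale where the other 3 read 4.78 to 4.83, and si-A1 replicate 3 for WEE1, at 2.87 and not well above background. At 48 h they were si-A1 replicate 3 for CCNB2 at 3.36, si-SCRL replicate 4 for CDC25C at 5.77, and si-A1 replicate 2 for WEE1 at 2.73, again not well above background. Each is a different array. The array of si-SCRL replicate 3 at 24 h was not marked, but it was the extreme control for several probes. Its Dixon's ratio was 0.794 for CDK1 (A_23_P138507), 0.823 for the second CCNB1 probe and 0.826 for CCNB2. It was high for CDK1 and CCNB2 and low for the second CCNB1 probe. Of the 24 h arrays it had the lowest median intensity (24.4) and the lowest share of spots well above background (58.5%).

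The si-A1 effect differed between 24 h and 48 h by the interaction test for CCNB1 (A_23_P122197, change -1.96), CCNA2 (-1.46) and CDC25B (-1.29). Time and array version cannot be told apart in this test, and the CCNB1 probe had 10 spots at 24 h and 1 at 48 h.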

How the results depend on the processing

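Of 1134 log2 fold changes against si-SCRL recomputed over all alternatives, 995 kept their direction and their side of the call, 104 lost the call, 29 gained it and 6 changed sign. The count of called probes of the set moved by over 1.5 times as follows, and the causes were not tested. After si-A1 at 24 h (4 as reported) it was 0 with only the groups compared and 1 to 4 with 1 array left out, 1 without si-A1 replicate 2. After si-A2 at 24 h (3) it was 7 with normexp, 8 with no background correction, 5 with the well-above-background filter and 2 to 5 with 1 array left out, 5 without si-SCRL replicate 3. After si-A1 at 48 h (9) it was 0 with the dim array kept and 7 to 9 with 1 array left out. After si-A2 at 48 h (3) it was 6 with normexp, 7 with no background correction, 0 with no slide term, with only the groups compared, with no filter and with the dim array kept, and 0 to 2 with 1 array left out. Between si-A2 and si-A1 at 48 h (1) it was 2 with normexp and with the interquartile filter, 3 with no background correction and with the well-above-background filter, 0 with no slide term, only the groups compared, no filter or the dim array kept, and 0 to 3 with 1 array left out. For the change of the si-A1 effect (3) it was 1 with no slide term and with only the groups compared, 0 with the dim array kept, and 0 to 3 with 1 array left out, 0 without si-A1 replicate 3 of 24 h.

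With the replicate block, 9 probes were called with si-A1, 1 with si-A2 (CCNB2, limma adjusted p = 0.00942) and 2 between the siRNAs at 48 h (CDK1 and CCNB2). For the change of the si-A1 effect the block left 2 probes, CCNB1 (adjusted p = 0.00577) and CCNB2 (0.00991), with CCNA2 at 0.0185 and CDC25B at 0.0144. At 24 h, where deviations of same-number samples showed little correlation (r -0.15 to 0.16), it gave 3 calls after either siRNA, and CDC25C with si-A1 was at 0.0269.

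Signs turned as follows, also for values away from 0 such as CCNB1 (A_23_P122197) between the siRNAs at 48 h, 1.08 as reported. The causes were not tested. For the second CDK1 probe between the siRNAs at 24 h the value was -0.0036 with 75th percentile scaling and -0.11 to 0.35 with 1 array left out. For CCNF in the change of the si-A2 effect it was -0.082 with 75th percentile scaling, -0.062 with the authors' log2 values, -0.10 with separate normalization, -0.13 with the dim array and -0.16 without si-A2 replicate 1 of 48 h, and between the siRNAs at 48 h -0.12 with the dim array and -0.13 (up to 0.56) without si-A2 replicate 1. CDC25C in the change of the si-A2 effect was 0.032 with normexp and 0.056 without si-A2 replicate 3 of 48 h, and CCNA2 was 0.15 without that array. The second CCNB1 probe was -0.025 (up to 0.51 with 1 array left out) with si-A1 and -0.090 (up to 0.44) with si-A2 at 24 h and 0.19 in the si-A2 change without si-SCRL replicate 3, 0.0068 (down to -0.15) between the siRNAs at 24 h without si-A1 replicate 4, -0.0069 and -0.36 (up to 0.62) with si-A2 at 48 h without si-A2 replicate 1 or 3, and 0.32 in the si-A2 change without si-A2 replicate 4. With the dim array kept, with si-A2 at 48 h the second CDK1 probe was at 0.52 and the second CCNB1 probe at -0.73. Between the siRNAs CCNB1 was then at -0.067, CDC25B at -0.67 and PKMYT1 at -0.14, and in the si-A2 change CDK1 was at -0.46 and PKMYT1 at -0.23.

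Over all probes, 510 were called with si-A1 at 24 h (178 to 662 over the alternatives), 429 with si-A2 (192 to 528) and 184 between the siRNAs (31 to 409). At 48 h these counts were 3113 (36 to 3381), 284 (0 to 749) and 856 (0 to 1089), and for the changes of effect 70 (0 to 195) and 15 (0 to 25). The lowest counts came from the dim array kept or from only the groups compared. WEE1, and CCNF and CDC25C in the knockdown groups, were limited by signal close to background.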
